A study of Mus musculus with 8 samples.

Results

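The caspase genes described here are Casp1, Casp2, Casp4, Casp6, Casp8, Casp9, Casp12 and Casp14. They were taken by name from the array annotation: every spot for a mouse transcript that carried 1 of these 8 gene names was kept, whatever its signal. This gave 9 probes in 9 spots out of 55681 probes in 59305 spots, with 2 probes for Casp4 and 1 for each of the others. The RefSeq accession of all 9 probes led to the same gene symbol in the current RefSeq table. Other caspase genes were not analysed here.

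The measurements came from one-colour Agilent arrays of thyroid RNA, 1 array for each of 8 thyroid samples. Of these samples, 4 were controls (Ct, replicates 1 to 4) and 4 came from mice injected with 99mTcO4-, at 30 Gy absorbed (Tc, named S539, S588, S589 and S590), with RNA taken after 24 hours. The study used female Balb/c mice aged 8 weeks, and it describes the control thyroids once as untreated and once as coming from mice given saline. No allele or transgene was involved, and only 1 dose and 1 time were sampled.

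Caspases are cysteine proteases that cut other proteins after an aspartate. They are made as inactive precursors and switched on by being brought together or cut, so the level of their mRNA is a measure of supply and not of activity. Initiator caspases are activated on scaffolds (caspase-8 on ligand-bound death receptors, caspase-9 on the apoptosome, caspase-2 on the PIDDosome), executioner caspases are cut by them, and inflammatory caspases work in inflammasomes, where interleukin precursors or gasdermin D are cut. In the thyroid, the death receptor Fas and its ligand have long been studied in autoimmune loss of follicular cells.

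None of the 8 caspase genes passed the threshold between exposed and control thyroids. The log2 fold changes of the 9 probes, exposed over control, lay between −0.60 for Casp1 and 0.23 for Casp14. Of the 9, 6 were below 0, and 50.8% of all probes were above 0. In contrast, 4 of 50 genes listed for the surrounding pathway rose in the same arrays, where 1.2% of all RefSeq genes passed. The other 46 did not pass, among them the adaptor genes Fadd, Cradd and Pycard. These lists were chosen with earlier results of these data known. The transcripts of the death receptors Fas and Tnfrsf10b, of the PIDDosome scaffold (listed on the array as Lrdd, now Pidd1) and of Bax, which opens mitochondria, were 3.86-fold, 4.24-fold, 8.64-fold and 3.95-fold higher in exposed thyroids. The threshold was a limma p of 0.05 after Benjamini-Hochberg adjustment over all 55681 probes, and 0.781% of all probes passed it. An unadjusted limma p under 0.05 was found for 1 of the 9 caspase probes and for 12.2% of all probes.

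Each caspase was read by a 60-base probe, whose positions on the mm9 build are given by the array files. The stretches below show which piece of each transcript was measured for the initiator and inflammatory members on which the results turn. The Casp8 probe is shown whole and the others by their first 30 bases, all from 5′ to 3′. The 2 probes of Casp4 share 55 bases, since the second starts 5 bases after the first, and the capitals mark the 25 bases that both shown stretches hold. They are therefore 2 readings of nearly the same target. The probes of Casp6 (chr3:129616453-129616512, plus strand), Casp12 (chr9:5372975-5373034, plus strand) and Casp14 (chr10:78174761-78174820, minus strand) are given by position.
Casp8, chr1:58901601-58901660, plus strand: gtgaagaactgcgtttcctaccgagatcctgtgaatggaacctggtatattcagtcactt
Casp9, chr4:141371773-141371802, plus strand: ccaggggaatcttcatttcttacgtgatac
Casp2, chr6:42232367-42232396, plus strand: ccaagtggtttgaagacttgctgccaaatt
Casp1, chr9:5307206-5307235, plus strand: ctatgctgagaatcgtgccaataagaagcc
Casp4, the first probe, chr9:5336658-5336687, plus strand: ccagcCTAAGCAACACAGTGGGATTCTGTT
Casp4, the second probe, chr9:5336663-5336692, plus strand: CTAAGCAACACAGTGGGATTCTGTTccata

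The signals used are the software's background-subtracted spot signals, put on the log2 scale and quantile-normalized between arrays, so that an increase of 1 is a doubling of signal. All 9 caspase probes were well above background on all 8 arrays, and none was saturated or marked as an outlier on any array. The slide was the same for the 8 arrays, and exposed samples took its first positions, so position and exposure cannot be told apart. Between 60.5% and 77.3% of all spots were well above background on an array. Of 9 thyrocyte markers, 9 were well above background on every array, among them Tg, Tshr and Pax8. The same held for 8 of 8 skeletal muscle markers, 9 of 10 macrophage markers and 5 of 9 markers of T cells and thymocytes, so the RNA came from more than follicular cells. This admixture was uneven between arrays. The mean of the T cell and thymocyte markers, each taken relative to its own 8-array mean, was 3.61 and 2.66 in control replicates 1 and 2. It was −1.27 and −1.38 in control replicates 3 and 4 and −1.28 to −0.02 in exposed thyroids. For 7 neutrophil markers this mean was 2.93 on S588 and at most 0.43 on the other arrays. In such bulk samples fewer cells of a type and less RNA per cell cannot be told apart.

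**Figure D1:**
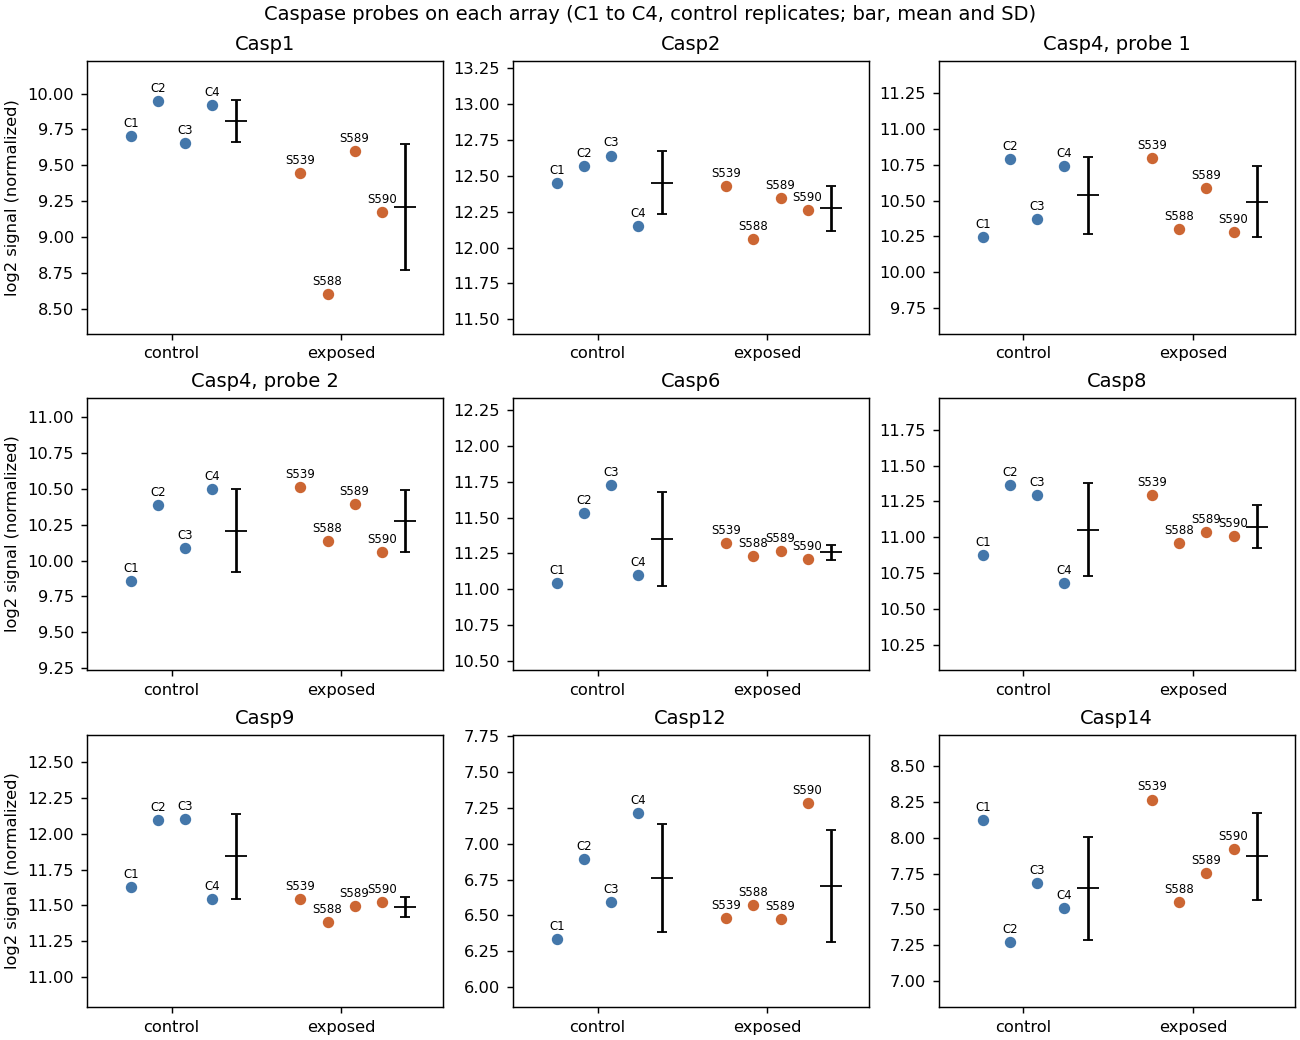
Normalized log2 signal (vertical axis, panels of equal height) of each caspase probe on the 4 control arrays (C1 to C4, blue) and the 4 exposed arrays (orange), with the mean and SD of each group as a bar. The groups overlap in every panel except that of Casp1, where S589 at 9.60 lies just under control replicate 3 at 9.65.

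Casp8 encodes the initiator that is recruited to Fas and related death receptors through the adaptor FADD. Its log2 signals were 10.88, 11.36, 11.29 and 10.68 in control replicates 1 to 4 and 11.29, 10.96, 11.04 and 11.01 in S539, S588, S589 and S590. All 4 exposed values lay inside the control range. Control thyroids averaged 11.05 ± 0.33 (SD, n = 4), and exposed thyroids averaged 11.07 ± 0.15 (SD, n = 4). The log2 fold change was thus 0.02, its standard error 0.19 and its limma adjusted p 0.974. The 95% interval of limma ran from −0.42 to 0.46, which is 0.747 to 1.38 times the control level. The exact two-sided permutation test of the 70 assignments of 4 and 4 arrays gave p = 0.943.

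Casp9 encodes the initiator that APAF1 gathers in the apoptosome once cytochrome c has left the mitochondria. Log2 signals of 11.63, 12.09, 12.10 and 11.54 were measured in control replicates 1 to 4, and of 11.55, 11.38, 11.50 and 11.53 in S539, S588, S589 and S590. The exposed arrays were close together at the low end, and S539 exceeded the lowest control by very little, so the groups overlapped. The log2 fold change was −0.35 (standard error, SE, 0.17), with a 95% interval from −0.75 to 0.05 and a limma adjusted p of 0.458. Exact permutation gave p = 0.0571 (two-sided), where 0.0286 is the smallest value that 4 arrays against 4 can give.

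Casp2 encodes the caspase of the PIDDosome, a complex with PIDD and the adaptor RAIDD (gene Cradd). Signals were 12.45, 12.57, 12.64 and 12.15 on the log2 scale in control replicates 1 to 4 and 12.43, 12.06, 12.34 and 12.26 in the exposed thyroids in the order above. The exposed values fell mostly between the lowest control and the 3 others, with S588 under all controls. This log2 fold change of −0.18 (SE 0.16, interval −0.55 to 0.19) had a limma adjusted p of 0.672 and an exact permutation p of 0.229.

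Casp6 encodes an executioner that cuts nuclear lamins. The control thyroids had log2 signals of 11.04, 11.53, 11.73 and 11.10, and the exposed thyroids 11.32, 11.23, 11.27 and 11.21. The 4 exposed values therefore lay in the empty middle of the control range. Their SD was 0.051, against 0.33 in controls, and for Casp9 the SDs were 0.072 and 0.30. An SD that was smaller in exposed than in control arrays was found for 7 of the 9 caspase probes and for 57.7% of all probes, and these spreads were not tested against each other. The log2 fold change of Casp6 was −0.09 (SE 0.18, interval −0.52 to 0.33, limma's adjusted p = 0.858).

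In the controls, Casp6, Casp8 and Casp9 were all brighter in replicates 2 and 3 than in replicates 1 and 4. The mean of the 9 thyrocyte markers, each taken relative to its own 8-array mean, was also higher in control replicates 2 (0.59) and 3 (0.84) than in replicates 1 (−0.15) and 4 (0.04), and it was between −0.38 and −0.29 in the exposed thyroids. Of these markers 1 fell in exposed thyroids, Slc5a5 with a log2 fold change of −3.53, which weighs heavily in this mean. The other 8 did not pass, with log2 fold changes from −0.85 (Foxe1) to 0.29 (Duox2). The part of the marker level in the caspase values was not tested.

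Of the inflammatory members, Casp1 encodes the enzyme that matures interleukin-1β and interleukin-18 in the inflammasome. Its log2 signals were 9.71, 9.95, 9.65 and 9.92 in control replicates 1 to 4 and 9.45, 8.60, 9.60 and 9.18 in S539, S588, S589 and S590. Every exposed value was below every control value, S588 by far and S589 by little. Groups without overlap were found for 1 of the 9 caspase probes, against 9.11% of all probes. The means were 9.81 ± 0.15 (SD, n = 4) and 9.21 ± 0.44 (SD, n = 4), which is a log2 fold change of −0.60 (SE 0.23). With limma this gave an unadjusted p of 0.0315 and an adjusted p of 0.358, so the difference did not pass the threshold. The exact permutation p was 0.0286. The interval from −1.13 to −0.07 corresponds to 0.456 to 0.954 times the control level.

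Casp1 is known to be abundant in macrophages, and their markers lay lower in exposed arrays too. The mean of 10 macrophage markers, taken in the same way, was −0.06 to 0.23 in controls and −0.33 to 0.01 in exposed thyroids. It was lowest on S588 (−0.33), where Casp1 was also lowest, and nearly as low on S539 (−0.31). S588 was likewise the lowest array for the means of the apoptosome list (−0.12) and the caspase substrate list (−0.21) described below. It was the highest array for the mean of the neutrophil markers (2.93). Of the 10 macrophage markers 9 had a lower mean in exposed thyroids. Csf1r had a log2 fold change of −0.63 (limma's adjusted p = 0.149), and Emr1 (now Adgre1, the F4/80 antigen) had −0.58 (0.362). Cd68 went the other way with 0.63 (0.684), and its brightest array was S588 (8.72). None of the 10 passed the threshold, and none was below background on all arrays. Dendritic cell markers had centred means from 0.23 to 1.10 in controls and from −0.65 to −0.56 in exposed thyroids, with 1 of 7 passing as lower (Clec9a) and Xcr1 well above background on no array. The part of these cells in the Casp1 value was not tested.

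Casp4 encodes the mouse enzyme also called caspase-11, which senses bacterial lipopolysaccharide in the cytosol and cuts gasdermin D. On its first probe the log2 signals were 10.25, 10.79, 10.37 and 10.74 in control and 10.80, 10.30, 10.59 and 10.28 in exposed thyroids, so the groups were interleaved. The first probe had a log2 fold change of −0.04 (SE 0.19, limma's adjusted p = 0.945) and the second of 0.07 (SE 0.19, adjusted p = 0.912). Both intervals together ran from −0.49 to 0.51. The readings thus differed in sign and both were well within the spread between arrays.

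Casp12 lies beside Casp1 and Casp4 on chromosome 9 and encodes a caspase tied to the endoplasmic reticulum. It gave 6.34, 6.90, 6.60 and 7.21 in control replicates 1 to 4 and 6.48, 6.57, 6.48 and 7.29 in the exposed thyroids. S590 stood apart from the other exposed arrays and was the brightest of all 8. The log2 fold change was −0.06 (SE 0.26, interval −0.66 to 0.55, limma's adjusted p = 0.948).

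Casp14 encodes a caspase of differentiating epidermis rather than of apoptosis. Log2 signals were 8.12, 7.27, 7.69 and 7.51 in control and 8.27, 7.55, 7.75 and 7.92 in exposed thyroids, which overlapped. Its log2 fold change of 0.23 (SE 0.23, limma's adjusted p = 0.714) had an interval up to 0.76, or 1.70 times the control level. The log2 fold change was 0.41 (SE 0.28) under 75th percentile scaling, which moved the median of all probes to 0.16. It was 0.03 with normexp background correction and −0.01 both with no background correction and in the deposited values. With 1 array left out it ran from 0.09 without S539 to 0.38 without control replicate 1. Among 10 markers of keratinised epithelium, whose centred mean was −0.29 to 0.35 in controls and −0.21 to 0.01 in exposed thyroids, none passed the threshold.

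**Figure D2:**
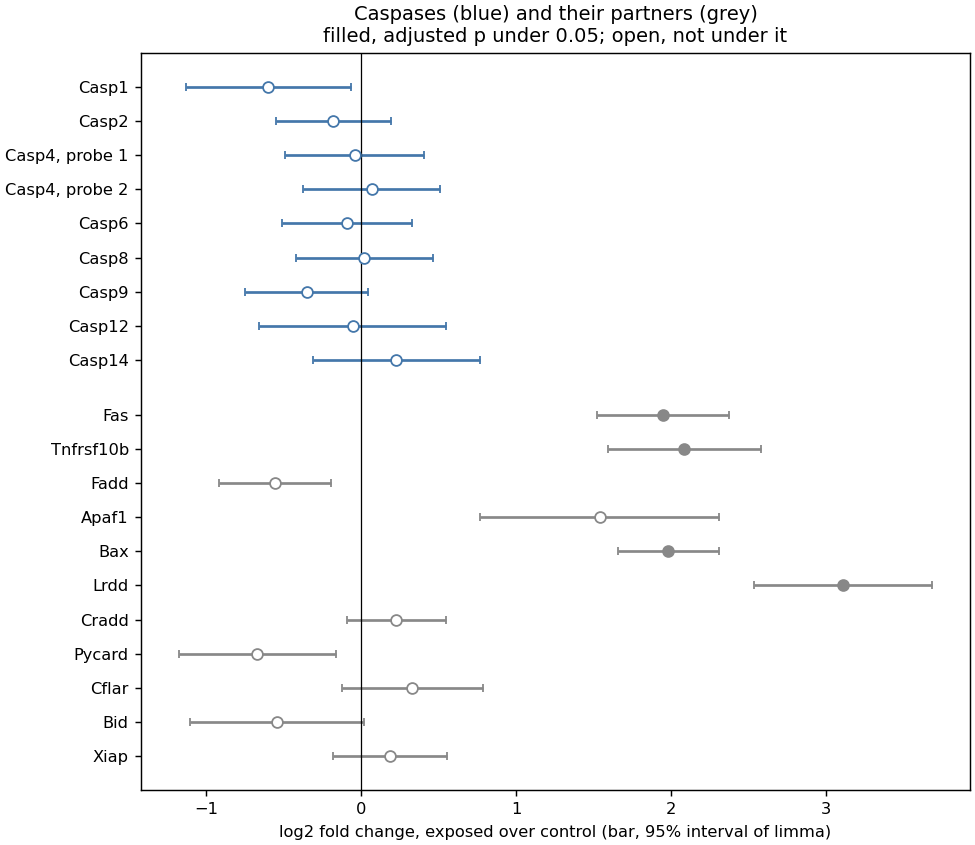
Log2 fold change of exposed over control thyroids (horizontal axis) with limma's 95% interval for the 9 caspase probes (blue) and 11 partner genes (grey). Filled points passed the threshold, and these are Fas, Tnfrsf10b, Bax and Lrdd. All caspase points are open, with log2 fold changes from −0.60 to 0.23.

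The surrounding pathway was read from 5 lists of 51 genes, of which 50 were on the arrays, each by its RefSeq probe of highest mean signal. Of the 50 genes, 4 rose, none fell and 46 did not pass. Their median log2 fold change was 0.03, against −0.03 over all 21021 RefSeq genes, of which 1.2% passed. The groups did not overlap for 12 of the 50, and for 11.7% of the RefSeq genes. At an unadjusted limma p under 0.05 there were 15 of the 50, 9 higher and 6 lower in exposed thyroids, and 14.6% of the RefSeq genes.

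In the death receptor arm 2 of 9 genes rose and 7 did not pass, with a median log2 fold change of 0.33. Fas had log2 signals of 10.78, 10.54, 10.63 and 10.91 in controls and 12.99, 12.27, 12.76 and 12.63 in exposed thyroids, a log2 fold change of 1.95 (SE 0.18, limma's adjusted p = 0.00662). Tnfrsf10b, the mouse receptor for the death ligand TRAIL, went from 9.84, 9.79, 10.15 and 10.16 to 12.62, 11.80, 11.92 and 11.95, a log2 fold change of 2.08 (SE 0.21, adjusted p = 0.00845). In both genes the lowest exposed array was far above the highest control. The adaptor gene Fadd had a log2 fold change of −0.56 (adjusted p = 0.208) with groups that did not overlap. Tnfrsf1a, a receptor for tumour necrosis factor, had 0.55 (0.182), also without overlap. Ripk1, a kinase that binds such receptors, had 0.50 (0.333). Fasl, the Fas ligand gene, had −1.55 (0.323) and was well above background on 2 control arrays and 1 exposed array. Its log2 signals were highest in control replicates 1 (6.34) and 2 (5.69), where the T cell and thymocyte markers were also highest. That overlap was not tested. Bid, whose product links caspase-8 to mitochondria, had −0.54 (0.426), and Cflar, an inhibitor of caspase-8, had 0.33 (0.533).

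In the apoptosome arm 1 of 14 genes rose and 13 did not pass, with a median of 0.01. This list is wider than the apoptosome itself and also held Birc5, Naip1, Naip2, Naip5 and Naip6. Bax had log2 signals of 12.41, 12.21, 12.35 and 12.27 in controls and 14.55, 14.18, 14.13 and 14.31 in exposed thyroids, a log2 fold change of 1.98 (SE 0.14, limma's adjusted p = 0.00286). Apaf1, the scaffold for caspase-9, was at 6.28, 7.26, 7.29 and 7.35 in controls and at 9.05, 7.87, 8.59 and 8.82 in exposed thyroids. The groups did not overlap, and the log2 fold change of 1.54 (SE 0.33) had an adjusted p of 0.110. It passed under 75th percentile scaling, with normexp or no background correction, in the deposited values and with array weights. Xiap, an inhibitor of caspase-9 and of executioners, had 0.19 (adjusted p = 0.660), Cycs (cytochrome c) −0.07 (0.922) and Birc3 −0.97 (0.108).

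Of the 2 PIDDosome genes 1 rose and 1 did not pass. Lrdd was at 6.89, 7.27, 7.01 and 6.86 in controls and at 10.48, 10.56, 9.62 and 9.80 in exposed thyroids, a log2 fold change of 3.11 (SE 0.25, limma's adjusted p = 0.0032). Cradd had 0.23 (0.538). As a reference, the cell cycle inhibitor gene Cdkn1a had 3.83 (0.0032) and the commonly used Actb −0.21 (0.717).

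In the inflammasome arm none of 14 genes passed, and the median log2 fold change was −0.07. An unadjusted limma p under 0.05 was found for Pycard alone, the adaptor of caspase-1, with a log2 fold change of −0.67 (unadjusted p = 0.0157, adjusted p = 0.282) and groups that did not overlap. The caspase-1 substrates Il1b and Il18 had −0.57 (0.572) and −0.43 (0.439), and Gsdmd, cut by the inflammatory caspases, 0.00 (0.999). The sensor Nlrp3 had 0.87 (0.621), with a wide SD of 1.47 among exposed arrays. Its log2 signal was 9.35 on S590, against 6.18 to 7.23 on the other exposed arrays and 5.92 to 6.72 in controls. Of 11 genes for caspase substrates none passed, and the median was 0.07. An unadjusted limma p under 0.05 was found for 3 of the 11, against the 14.6% of RefSeq genes above. These were Dffb, which encodes the nuclease that cuts DNA in apoptosis, with a log2 fold change of 0.71 (adjusted p = 0.377), Lmna, cut by caspase-6, with 0.48 (0.308), and Parp1 with −0.50 (0.331).

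To set each caspase directly against its partner, the log2 signal of the caspase was taken from that of the partner on each array, and these differences are set side by side. The 7 pairs follow the known complexes and were chosen after the values were seen, so they are a description with no test. Such a difference of differences describes how far the 2 transcripts changed unequally on these arrays. Fas minus Casp8 ran from −0.82 to 0.23 in controls and from 1.31 to 1.73 in exposed thyroids, and the means differed by 1.93. The difference of means, exposed minus control, was 2.06 for Tnfrsf10b minus Casp8, 1.89 for Apaf1 minus Casp9, 3.29 for Lrdd minus Casp2 and −0.58 for Fadd minus Casp8. It was 0.41 for Cradd minus Casp2 and −0.07 for Pycard minus Casp1, where the groups overlapped.

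**Figure D3:**
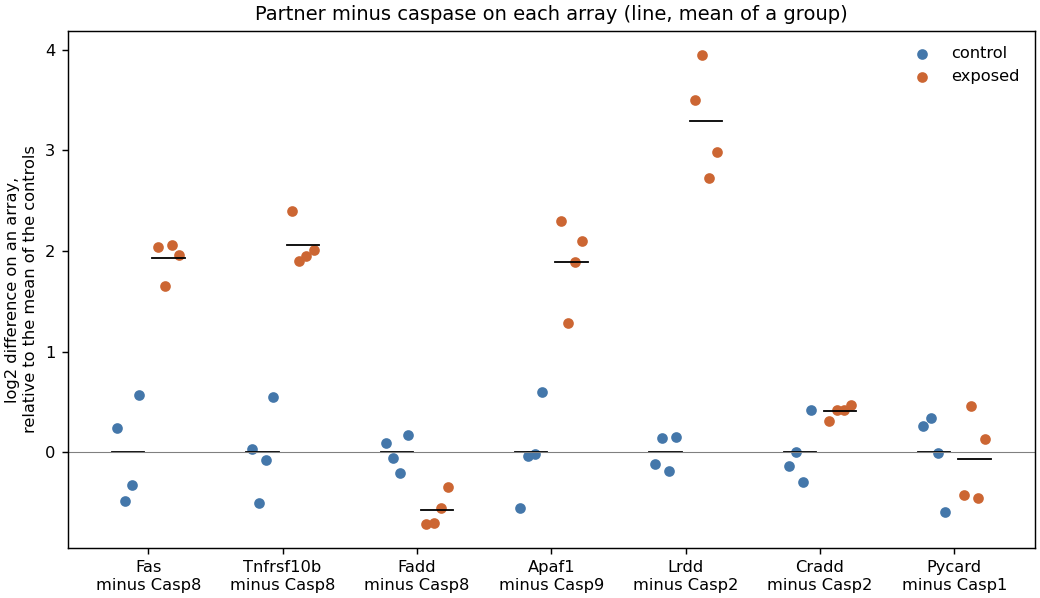
Log2 signal of a partner gene minus that of its caspase on each array (vertical axis, relative to the control mean of the pair), with control arrays in blue, exposed arrays in orange and a line for each group mean. Exposed arrays lie above the controls for Fas, Tnfrsf10b, Apaf1 and Lrdd and below them for Fadd, and overlap for Cradd and Pycard.

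The 9 caspase fold changes were recomputed with other processing and with each array left out in turn, and no caspase probe passed the threshold in any of these 16 fits. Casp1, Casp2 and Casp9 were lower in exposed thyroids in all of them, with log2 fold changes from −0.73 to −0.40, from −0.28 to −0.11 and from −0.47 to −0.27. The filter on dim probes, the variance trend and the removal of outlier spots could not change a caspase fold change. The other fits reuse the same arrays, so the 16 are not independent. The smallest adjusted p of limma in any fit was 0.221 for Casp1 and 0.174 for Casp9. The sign of Casp4, Casp6, Casp8, Casp12 and Casp14 changed in at least 1 of them, so no direction is given for these 5 genes. Without S588, the lowest array, the log2 fold change of Casp1 was −0.40 (adjusted p = 0.484).

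**Figure D4:**
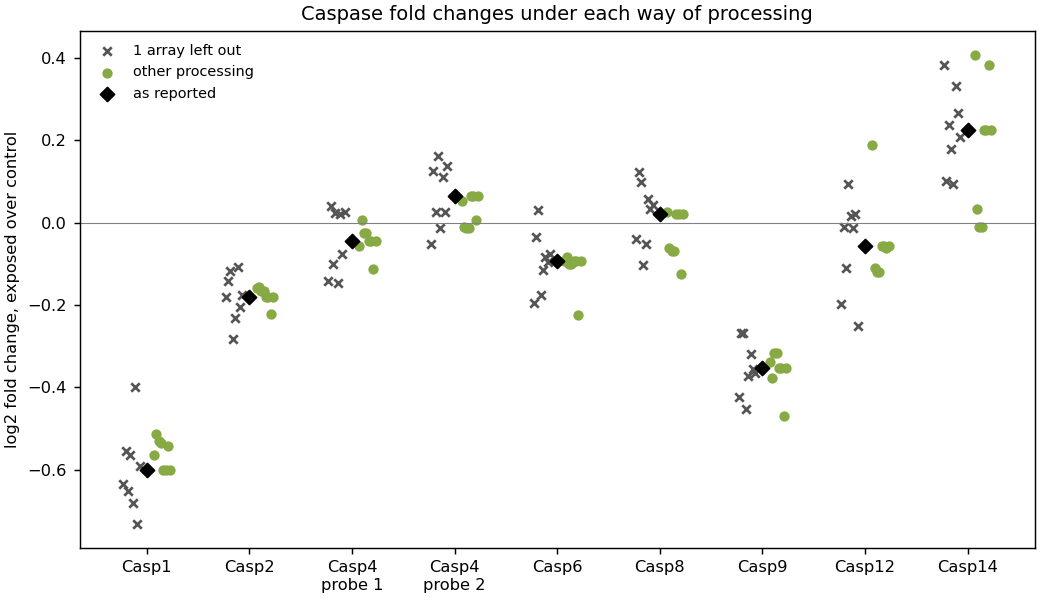
Log2 fold change of each caspase probe (vertical axis) as reported (black diamond), with 1 array left out (grey crosses) and with other processing (green points). Casp1, Casp2 and Casp9 stay below 0 throughout, and the other probes have points on both sides of 0.

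The promoters of the members were set side by side from RefSeq (build GRCm38.p6), which held windows of 300 bases, 250 before and 50 after each start, for all 8 genes. The dinucleotide CG, whose density separates CpG-island promoters of broadly used genes from others, was counted in each. Casp9 had 28, Casp2 had 26 and Casp6 had 16, while Casp14 had 9, Casp8 and both windows of Casp4 had 5, and Casp1 and Casp12 had 3. The median over 32851 windows was 7, and at least 28 were found in 14.2% of them and at least 3 in 76.7%. The 250 bases before the starts of Casp9 and Casp1, the members with the lowest unadjusted p, show the contrast, with each CG in capitals. These counts are a description of the sequences, and their relation to the signals was not tested.
Casp9, chr4:141793362-141793611, plus strand: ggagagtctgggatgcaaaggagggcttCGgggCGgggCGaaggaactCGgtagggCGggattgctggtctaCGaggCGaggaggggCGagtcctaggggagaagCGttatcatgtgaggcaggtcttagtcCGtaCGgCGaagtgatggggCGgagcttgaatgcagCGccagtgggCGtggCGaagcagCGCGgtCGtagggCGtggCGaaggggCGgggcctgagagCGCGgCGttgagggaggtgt
Casp1, chr9:5298267-5298516, plus strand: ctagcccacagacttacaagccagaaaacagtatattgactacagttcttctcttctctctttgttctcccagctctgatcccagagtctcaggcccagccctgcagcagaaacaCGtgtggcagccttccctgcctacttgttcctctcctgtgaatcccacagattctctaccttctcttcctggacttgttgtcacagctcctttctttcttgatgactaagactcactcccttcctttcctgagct

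Over the 8 arrays, each member was also compared with 13766 or 13767 other RefSeq genes of a mean log2 signal of at least 7. Signals were centred on the mean of their group, so that the comparison reads only the differences between arrays of a group. With so few arrays and so many genes, high values of Pearson's r arise easily, and they are given as a description. The 3 genes most alike were Stmn2, Ccdc130 and Il1rn for Casp1 (r from 0.955 to 0.967) and Taf5l, Vkorc1 and Efemp2 for Casp8 (0.988 to 0.991). For Casp9 they were Slc7a4, Arhgap8 and H3f3b (0.986 to 0.988), for Casp2 Aloxe3, Fam117a and U2af1 (0.983 to 0.989), and for Casp6 they included Kcnh3 (0.992) and Caml (0.985). Casp4 was most like Mterfd2 (0.951) and Prph (0.941), Casp12 like Rnf139, Park7 and 4732491K20Rik (0.968 to 0.993), and Casp14 like Pkd1, 1700007K09Rik and Mesdc1 (0.954 to 0.982). No caspase was among the 3 genes most like another. Between different caspases r still ran from −0.413 (Casp2 with Casp12) to 0.938 (Casp8 with Casp9), and it was 0.933 for Casp6 with Casp9.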

How the data were processed

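The authors deposited Feature Extraction (version 10.7.3.1) files, whose spot intensity columns include a background-subtracted and detrended signal, and a table of log2 values, normalized by quantiles in limma. The deposited log2 values differed by at most 0.0378 (median 0.0113) from quantile-normalized median spot signals without background subtraction, a comparison of 59305 spots.

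From the scanner files, these background-subtracted signals were put on the log2 scale and quantile-normalized between arrays without control spots, spots of a probe were averaged, and the groups (from the labels) were compared by lmFit and eBayes (R 4.3.3, limma 3.58.1) over 55681 probes with no covariate, an adjusted p of 0.05 as threshold and limma's 95% intervals, which are not adjusted for many probes. The fit was tested on simulated data. Other scalings, background corrections, filters, weights and each array left out were tried. Named genes were all members, called genes and known partners from the pathway lists, the 3 genes most like each member (for Casp4 and Casp6, 1 of the 3 is not reported here), and Actb and Cdkn1a. Birc3, Cycs, Tnfrsf1a, Ripk1, Fasl, Dffb, Il1b, Il18, Gsdmd, Nlrp3, Lmna, Parp1 and the named cell type markers fall outside this rule and were chosen after their values were seen. Birc5 and the Naip genes are named only as contents of their list. The members and lists were chosen with earlier results of these data known. The study describes RNA from 4 untreated and 4 exposed thyroids, and the labels do not say whether animals were pooled. The p-values measure the spread between these samples, whose small number limits precision.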

Additional observations from a re-analysis of the deposited data

Results flagged for a closer look

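Within the 4 exposed arrays, Casp12 stood at a log2 signal of 7.29 on S590, far above the 6.48 to 6.57 of the other exposed arrays. The gap took a larger share of the group's range, 0.879, than Dixon's 95% critical value for 4 arrays allows. Of 18 such groups of 4 arrays (9 caspase probes in 2 conditions) this was the only one flagged, where chance gives about 0.9. Without S590 the log2 fold change of Casp12 was −0.25 (limma's adjusted p = 0.703).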

How the results depend on the processing

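No caspase probe passed the threshold under any of the 8 other settings or without any 1 array, and Fas, Tnfrsf10b, Bax and Lrdd passed in all of them. Values of log2 fold change that turned sign were small. With 75th percentile scaling, which moved the median of all probes to 0.16, Casp12 had 0.19. With normexp, the Casp4 probes had 0.0075 and −0.0095 and Casp8 −0.0623. With no background correction, the second Casp4 probe had −0.0138, Casp8 −0.0691 and Casp14 −0.00988, and the deposited values gave −0.0137, −0.0694 and −0.0100. With array weights, Casp8 had −0.12. Leaving out 1 array gave −0.147 to 0.0401 and −0.0519 to 0.163 for the Casp4 probes, −0.196 to 0.0318 for Casp6, −0.10 to 0.12 for Casp8, −0.250 to 0.0947 for Casp12 and 0.0936 to 0.383 for Casp14. Of the pathway genes, 1 fell (Birc3) with normexp and with array weights, against none as reported. The number of all probes that passed, 435 as reported, was 577 with the 75th percentile, 856 with normexp, 962 with no background correction, 955 in the deposited values, 733 with a filter on dim probes, 744 with a variance trend and 959 with array weights. Without 1 array it ran from 100 (without S590) to 481 (without control replicate 1). The cause of these differences was not tested. No paired analysis was possible because the labels of the groups share no replicate numbers. The arrays carry no depth, and their number and signal over background limit the precision.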
